A study of Mus musculus with 8 samples.

Results

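The Schwann cell and myelin genes described here are Sox10, Foxd3, Erbb3, Cdh19, S100b, Mbp, Pmp22 and Prx, 8 of the 41186 gene symbols in the deposited table of mouse aortic RNA. They were selected by name, as a list chosen with earlier results of these data known. The lists of other genes below were chosen in the same way. Counts and p-values for them are therefore a description and no independent support. Where a symbol stood at more than 1 locus, the locus with the largest count summed over the 8 libraries was used, so the summed count chose the locus and no contrast between groups entered that rule.

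Whole aortas of mice without apolipoprotein E were sequenced as poly(A) RNA to ask what changes when natriuretic peptide receptor C (NPRC, encoded by Npr3) is missing as well. Per the titles, 5 libraries came from ApoE-/- mice and 3 from NPRC-/-ApoE-/- mice. All mice lacked ApoE and received a Western diet, for 12 weeks per the study's methods, and none had an intact ApoE gene or a chow diet. The NPRC-/- allele was a CRISPR frameshift in exon 1, present in every cell, and the groups were littermates per the methods, which give male sex for the purchased ApoE-/- mice only and no age at tissue collection for these libraries.

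The title and the genotype entry named different genotypes for 4 of the 8 libraries. The entries of 2 libraries titled ApoE-/-, numbers 4 and 5, read Nprc-/-Apoe-/-, and those of 2 titled NPRC-/-ApoE-/-, numbers 1 and 2, read Apoe-/-. Groups below are those of the title unless the entry is named, and every comparison was repeated by entry. A frameshift need not remove the RNA, so the targeted gene did not check either label: under the title ApoE-/-, Npr3 was between 0.62 and 1.69 FPKM, and under NPRC-/-ApoE-/- between 1.13 and 1.39 FPKM. FPKM scales a level to transcript length and to library size, so that genes can be compared with each other. Apoe itself was listed at 2.33 to 3.38 FPKM over all libraries. Total counts were between 62969165 and 86693276 per library, and nothing in the labels says more about the origin of the libraries than their title, so p-values measure the spread between these libraries.

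Schwann cells are the glia of peripheral nerves. Myelinating Schwann cells wrap single large axons in a lipid-rich sheath, whereas non-myelinating ones hold several thin axons, and the sympathetic fibres that run in the outer coat of the aorta are mostly of the thin kind. SOX10 sets the identity of the lineage and, with EGR2, switches on the myelin genes, and the receptor pair ERBB2 and ERBB3 reads neuregulin from the axon and keeps the cells alive.

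All 8 genes were detected in every library, at levels that spanned a wide range. Pmp22 had the highest level, with a mean of 17.2 FPKM ± 2.13 (SD, n = 8), followed by S100b at 4.98 ± 1.19 and Mbp at 2.54 ± 0.793. These 3 kept that order in 8 of 8 libraries. Cdh19 (1.17 ± 0.438), Erbb3 (0.95 ± 0.297) and Prx (0.927 ± 0.254) lay within each other's spread: Cdh19 was above Erbb3 in 6 of 8 libraries and Erbb3 above Prx in 5 of 8. Sox10 (0.652 ± 0.313) was below Prx in 7 of 8 libraries, within its spread. Foxd3 was last at 0.228 ± 0.131 FPKM, below Sox10 in 8 of 8 libraries. The genes with the lowest levels varied most, with a coefficient of variation of 57.5% for Foxd3 and 47.9% for Sox10 against 12.4% for Pmp22.

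The markers of the Schwann lineage were present and those of fat cells were abundant. Of the melanocyte markers 5 of 8, and of the oligodendrocyte markers 4 of 7, stayed below 0.1 FPKM in every library. Of the 10 Schwann cell markers, all 10 were detected, 5 of which were not among the 8 genes. Melanocytes also express Sox10 and Erbb3, but their pigment genes Tyrp1, Slc45a2 and Oca2 were listed at 0 in every library, and Tyr and Dct did not exceed 0.02 and 0.03 FPKM. Of the other melanocyte markers, Pmel was at 0.27 to 0.42 FPKM over all libraries and Mlana at 0 to 0.26 FPKM. The 8 melanocyte markers summed to between 3.87 and 4.38 FPKM under the title ApoE-/- and to between 3.12 and 4.82 FPKM under the other, most of it from Mitf, which other cells also make. Oligodendrocytes make Mbp in the brain. Their markers Opalin, Olig2, Ermn and Mog were at or near 0, with Opalin at 0 in every library and Mog at most 0.05 FPKM. The 7 oligodendrocyte markers summed to 4.62 to 6.17 FPKM against 4.05 to 5.06 FPKM, mostly from Hapln2 and Aspa. S100b is also expressed by fat cells, and the 8 adipocyte markers summed to between 96.5 and 396 FPKM under the title ApoE-/- and to between 146 and 285 FPKM under the title NPRC-/-ApoE-/-. Pmp22 is made outside nerves too, and how much of the S100b and Pmp22 level came from Schwann cells was not tested.

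Promoter sequences from the RefSeq table (GRCm38.p6) are given for 4 of the 8 genes. They are given because the members differed in how closely they followed Sox10. These windows show whether letters that SOX and EGR2 proteins are known to bind were present. No window of Sox10, Erbb3 or Cdh19 was found in that table, and that of Mbp is not reported here. Each line holds the 250 bases before the first annotated start, 5′ to 3′ on the gene's strand, with a match to a searched motif in capitals. Foxd3 is at chr4:99656049-99656298, S100b at chr10:76253586-76253835, Pmp22 at chr11:63128732-63128981 and Prx at chr7:27499074-27499323, all on the plus strand.
Foxd3: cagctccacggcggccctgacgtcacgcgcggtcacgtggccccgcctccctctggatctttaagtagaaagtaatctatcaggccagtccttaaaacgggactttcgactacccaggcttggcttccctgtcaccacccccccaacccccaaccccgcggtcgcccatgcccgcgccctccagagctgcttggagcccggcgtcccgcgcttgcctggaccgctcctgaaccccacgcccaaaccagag
S100b: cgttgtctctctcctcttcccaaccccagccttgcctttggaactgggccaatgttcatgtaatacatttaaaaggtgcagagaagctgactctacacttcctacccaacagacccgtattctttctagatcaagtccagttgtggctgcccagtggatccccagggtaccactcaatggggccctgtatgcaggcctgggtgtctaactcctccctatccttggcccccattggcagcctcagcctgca
Pmp22: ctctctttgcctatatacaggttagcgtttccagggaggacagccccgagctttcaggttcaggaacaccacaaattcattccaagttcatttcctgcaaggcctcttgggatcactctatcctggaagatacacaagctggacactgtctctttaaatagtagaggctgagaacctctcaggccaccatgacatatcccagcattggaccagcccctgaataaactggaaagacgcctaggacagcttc
Prx: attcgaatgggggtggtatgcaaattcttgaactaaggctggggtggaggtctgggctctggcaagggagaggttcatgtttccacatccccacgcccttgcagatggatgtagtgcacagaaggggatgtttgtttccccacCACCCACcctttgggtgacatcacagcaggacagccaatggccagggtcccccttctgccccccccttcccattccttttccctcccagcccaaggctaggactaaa
The SOX motifs ACAAAG and ACAATG and the EGR2 motif GTGGGNG were searched on both strands. Among these windows, the search found 1 match, GTGGGNG on the minus strand of Prx, whose first base lies 107 bases before the start. Over 32851 promoter windows of the same length, 16.5% held ACAAAG, 10.7% ACAATG and 28.1% GTGGGNG. The windows also differed in composition: GC content was 65.6% for Foxd3, 56.4% for Prx, 53.6% for S100b and 48.8% for Pmp22, against a median of 52.4% over all windows. The 3 further Pmp22 starts held none of the motifs.

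The 8 genes stood lower on average in the libraries titled NPRC-/-ApoE-/-, most clearly the transcription factor Sox10 and the adhesion molecule Cdh19, while S100b and Pmp22 differed little. By title, 8 of 8 had a log2 fold change below 0, where 51.1% of the 30601 tested loci did, and their median was -0.67 against -0.01 over all tested loci. With edgeR's quasi-likelihood test and Benjamini-Hochberg adjustment over all tested loci, 0 of the 8 genes and 0 loci in all (0%) had an adjusted p under 0.05. At an unadjusted p under 0.05, 4 of 8 were lower (Sox10, Cdh19, Erbb3 and Mbp) and 0 higher, against 7.29% of all loci lower and 5.77% higher. DESeq2 gave an adjusted p under 0.05 for 990 loci and for 2 of the 8 genes, and limma on log2(FPKM + 1) for 1 locus and 0 of the 8. Fewer Schwann cells and less RNA per Schwann cell cannot be told apart in RNA of whole tissue.

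**Figure D1:**
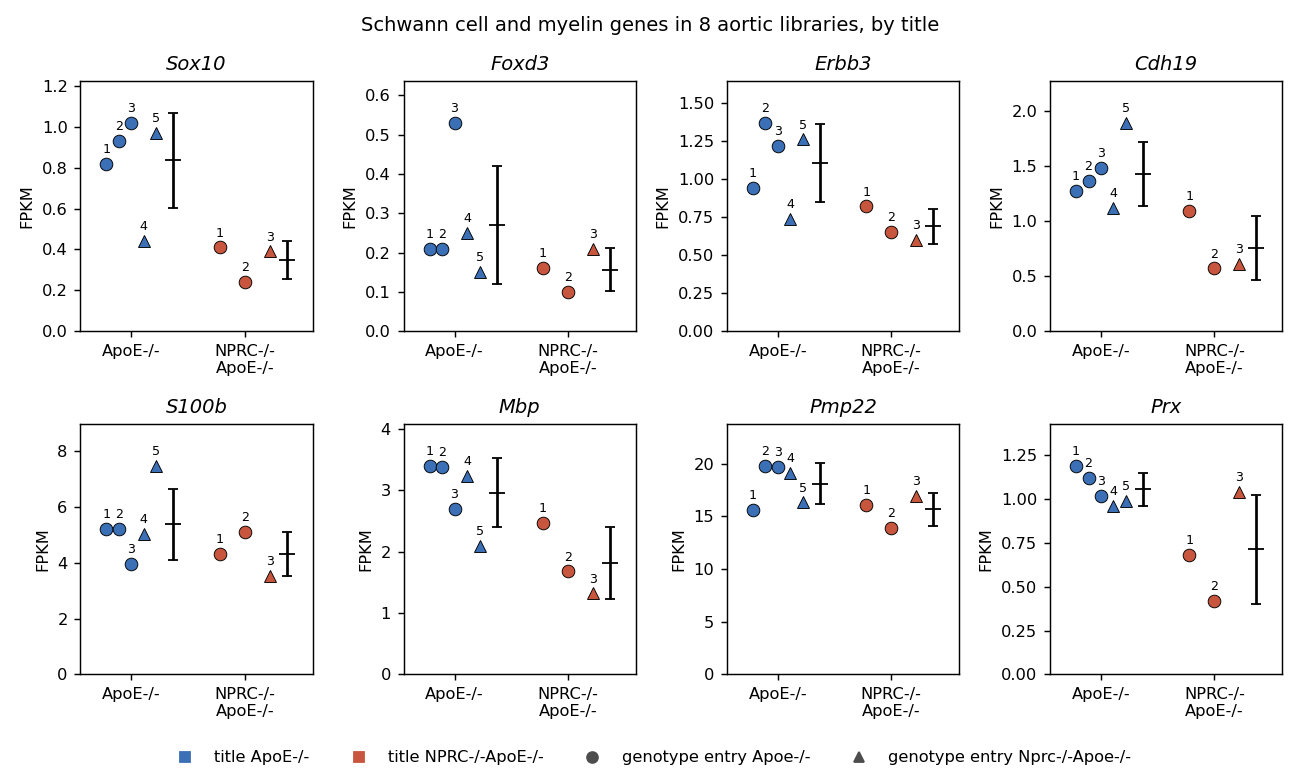
Level of each gene in FPKM (y axis, from 0) in the 8 libraries by title (x axis), with 1 point per library and its replicate number. Colour gives the title and shape the genotype entry, and the bars are the mean ± SD of each titled group. Sox10 and Cdh19 do not overlap between the titled groups, and the other 6 genes do.

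Sox10, the transcription factor of the Schwann lineage, lies on the minus strand of chromosome 15 (GRCm38, chr15:79154908-79165240) with 3 to 5 exons in its coding transcripts. It was 0.82, 0.93, 1.02, 0.44 and 0.97 FPKM in the libraries titled ApoE-/- 1 to 5, from 134 to 308 counts. In the libraries titled NPRC-/-ApoE-/- 1 to 3 it was 0.41, 0.24 and 0.39 FPKM, from 58 to 131 counts. The groups did not overlap, although ApoE-/- 4 stood next to the highest NPRC-/-ApoE-/- library and far from its own group. The mean was 0.836 ± 0.233 (SD, n = 5) against 0.347 ± 0.0929 (n = 3). The log2 fold change of -1.21 (SE 0.32, 95% interval -1.94 to -0.49) had an adjusted p of 0.256 in edgeR and of 0.0175 in DESeq2, and of 0.0175 to 1 over all alternatives, the genotype entry included. Sox10 was also the 1 gene of the 8 that met the criterion of the study's methods (an unadjusted p under 0.05 and a fold beyond 2 in either direction), which 5.27% of all tested loci met.

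Foxd3, a forkhead factor of the neural crest and of early Schwann cells, is a single-exon gene on chromosome 4 (chr4:99656299-99658622, plus strand). It was 0.21, 0.21, 0.53, 0.25 and 0.15 FPKM in the ApoE-/- libraries and 0.16, 0.10 and 0.21 FPKM in the NPRC-/-ApoE-/- libraries. Only ApoE-/- 3 stood well above the rest, and the groups overlapped. Its counts were low, from 18 to 121 per library, which left a wide interval of -1.94 to 0.33 around a log2 fold change of -0.81 (edgeR adjusted p = 0.515). Without ApoE-/- 3 the log2 fold change was -0.38.

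Erbb3, the neuregulin receptor, is carried on chromosome 10 (chr10:128567523-128589652, minus strand, 28 exons). It was 0.94, 1.37, 1.22, 0.74 and 1.26 FPKM in the ApoE-/- libraries and 0.82, 0.65 and 0.60 FPKM in the NPRC-/-ApoE-/- libraries. ApoE-/- 4 fell inside the range of the other group, as the only library of its title to do so. By title Erbb3 had a log2 fold change of -0.65 (SE 0.22, 95% interval -1.14 to -0.15, edgeR adjusted p = 0.313). Erbb2, the partner that ERBB3 needs to signal, had a log2 fold change of 0.11 (SE 0.145).

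Cdh19, a cadherin of Schwann cell precursors and mature Schwann cells, spans 89.3 kb of chromosome 1 (chr1:110888326-110977584, minus strand). It was 1.27, 1.36, 1.48, 1.12 and 1.89 FPKM in the ApoE-/- libraries and 1.09, 0.57 and 0.61 FPKM in the NPRC-/-ApoE-/- libraries. The groups did not overlap, but ApoE-/- 4 and NPRC-/-ApoE-/- 1 lay next to each other. The mean was 1.42 ± 0.292 (SD, n = 5) against 0.757 ± 0.289 (n = 3). The log2 fold change of -0.89 (SE 0.255, 95% interval -1.46 to -0.31) had an adjusted p of 0.266 in edgeR and of 0.0405 in DESeq2 (0.0405 to 1 over all alternatives). Sox10 and Cdh19 were the 2 of 8 genes whose groups did not overlap, lower, which 4.67% of all tested loci shared.

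S100b, a calcium-binding protein used as a glial marker, lies on chromosome 10 (chr10:76253853-76261159, plus strand) and overlaps Dip2a on the other strand, so its counts are uncertain if strand was not used. It was 5.22, 5.22, 3.96, 5.04 and 7.48 FPKM in the ApoE-/- libraries and 4.32, 5.10 and 3.54 FPKM in the NPRC-/-ApoE-/- libraries. Only ApoE-/- 5 stood above the rest, and the groups overlapped. S100b had a log2 fold change of -0.28 (SE 0.196, 95% interval -0.72 to 0.16, edgeR adjusted p = 0.562).

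Among the myelin genes, Mbp, which encodes the basic protein that compacts the sheath, lies on chromosome 18 (82475146 to 82585637, plus strand) with 16 annotated transcripts. Mbp was 3.40, 3.39, 2.70, 3.24 and 2.10 FPKM in the ApoE-/- libraries and 2.47, 1.68 and 1.32 FPKM in the NPRC-/-ApoE-/- libraries. The groups overlapped through ApoE-/- 5, the lowest of its title. The log2 fold change was -0.68 (SE 0.236, 95% interval -1.217 to -0.151, edgeR adjusted p = 0.318).

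Pmp22, a membrane protein of compact myelin that other tissues also make, is on chromosome 11 (chr11:63128982-63159546, plus strand). It was 15.65, 19.80, 19.68, 19.15 and 16.34 FPKM in the ApoE-/- libraries and 16.10, 13.92 and 16.97 FPKM in the NPRC-/-ApoE-/- libraries. The ranges overlapped broadly. The log2 fold change of -0.18 (95% interval -0.55 to 0.18, edgeR adjusted p = 0.648) was the smallest of the 8. The locus held 67.9% of the counts under the symbol, and a second locus named Pmp22 on the opposite strand held the rest.

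Prx encodes periaxin, which links the Schwann cell membrane outside the sheath to the basal lamina. The gene lies on chromosome 7 (chr7:27499324-27520214, plus strand) and overlaps Gm15541 on the other strand. Its level was 1.19, 1.12, 1.02, 0.96 and 0.99 FPKM in the ApoE-/- libraries and 0.68, 0.42 and 1.04 FPKM in the NPRC-/-ApoE-/- libraries. The ApoE-/- libraries were close together, and NPRC-/-ApoE-/- 3 stood among them. For Prx the log2 fold change was -0.52 (95% interval -1.15 to 0.11, edgeR adjusted p = 0.455). Without NPRC-/-ApoE-/- 3 it was -0.95, and without NPRC-/-ApoE-/- 2 it was -0.22.

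Which libraries were left in decided how many of the 8 genes had an unadjusted p under 0.05. NPRC-/-ApoE-/- 2 was the lowest library for 5 genes (Sox10, Foxd3, Cdh19, Pmp22 and Prx) and NPRC-/-ApoE-/- 3 for the other 3. Without NPRC-/-ApoE-/- 2 the count was 2 (Sox10 and Cdh19), and without NPRC-/-ApoE-/- 3 it was 3 (Sox10, Cdh19 and Prx). It stayed at 4 when any 1 of the remaining 6 libraries was left out, and 8 of 8 genes had a negative log2 fold change in each of these 8 fits.

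Grouped by genotype entry, the 8 genes did not differ in a common direction. There, 4 of 8 had a log2 fold change below 0 (50.9% of all tested loci), 0 had an unadjusted p under 0.05 and were lower (0.807% of all loci), 0 met the study's criterion (1.17%), and 0 had an adjusted p under 0.05 (0%, edgeR). The median was -0.07 against 0.00 over all loci (-0.004 before rounding). Sox10 had a log2 fold change of -0.20 (95% interval -1.32 to 0.93) and Cdh19 of 0.06 (-0.81 to 0.92). The first interval held the value found by title, -1.21, and the second did not hold its own, -0.89. Mbp (-0.25), Foxd3 (-0.23) and Erbb3 (-0.20) were below 0, and Prx (0.21), S100b (0.18) and Pmp22 (0.07) above it. The edgeR adjusted p was 1 for each of the 8. Of the ApoE-/- libraries, 4 and 5 join NPRC-/-ApoE-/- 3 in this grouping, and ApoE-/- 5 had the highest Cdh19 and S100b of all libraries. Among the 4 libraries whose labels named the same genotype, 3 against 1, Sox10 had a log2 fold change of -1.15 (SE 0.408), Cdh19 of -1.09 (SE 0.339), Mbp of -1.17 (SE 0.27) and Erbb3 of -0.88 (SE 0.378). In the same fit Foxd3 was at -0.57 (SE 0.792), S100b at -0.345, Pmp22 at -0.034 and Prx at -0.001. The lone NPRC-/-ApoE-/- library was taken to vary like the others.

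**Figure D2:**
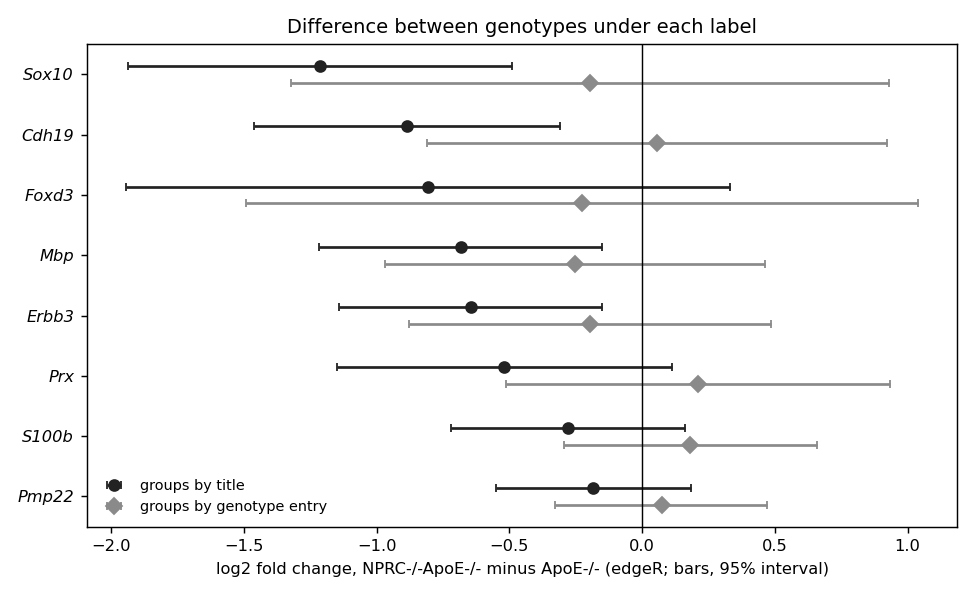
log2 fold change of each gene, NPRC-/-ApoE-/- minus ApoE-/- (x axis), by title (black circles) and by genotype entry (grey diamonds), from edgeR with 95% intervals. By title, all 8 points are below 0 and the intervals of Sox10, Cdh19, Mbp and Erbb3 exclude 0, and by entry each interval holds 0.

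The 8 genes did not vary as 1 block across the libraries. In log2 CPM (counts scaled to library size) over the 8 libraries, where the genes of a library share its depth, its scaling and its group, Sox10 ran with Erbb3 (Pearson's r = 0.909, Spearman's rho = 0.81) and with Cdh19 (r = 0.875, rho = 0.952), and Erbb3 with Cdh19 (r = 0.866, rho = 0.857). After the group means were removed, these values were 0.764, 0.599 and 0.646. Sox10 ran less closely with Mbp (r = 0.523) and S100b (r = 0.24), and its r with Mbp was -0.239 within groups. Foxd3 ran with Pmp22 (r = 0.857, 0.826 within groups) and inversely with S100b (r = -0.383, -0.868 within groups). Over all 8 libraries, the highest r of S100b with any of the other 7 genes was 0.462, with Cdh19. Without the 2 libraries farthest from the median of Sox10, the r of Sox10 with S100b was 0.706 (n = 6), beside 0.736 with Cdh19. Without the 2 farthest from the median of Erbb3, the r of Erbb3 with S100b was 0.782. Within groups, S100b had r of -0.396 with Sox10 and -0.095 with Erbb3.

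**Figure D3:**
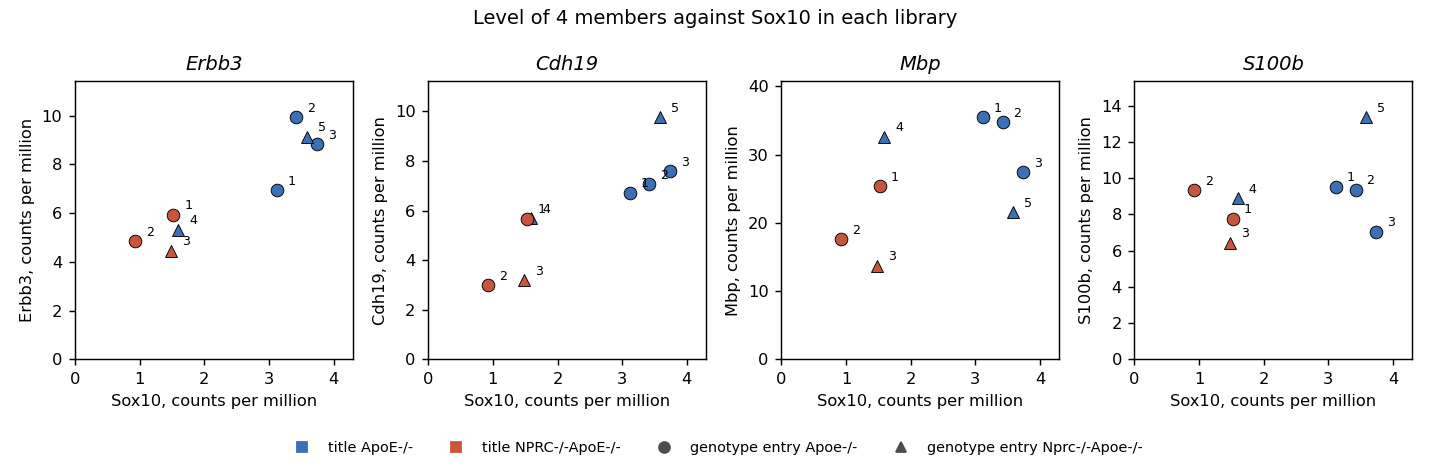
CPM (counts scaled to library size) of Erbb3, Cdh19, Mbp and S100b (y axes) against those of Sox10 (x axes), with 1 point per library and its replicate number, colour by title and shape by genotype entry. Erbb3 and Cdh19 climb with Sox10, with r of 0.909 and 0.875 in log2 CPM, and Mbp and S100b do so less closely, with 0.523 and 0.24.

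Other loci followed Sox10 more closely than most of these genes. Of 17221 loci with 1 gene name and a mean of at least 1 FPKM, the highest r with Sox10 over the 8 libraries were those of Ythdc2 (0.994), Zfp280c (0.98), Gpr39 (0.972), Gm25193 (0.957), E2f5 (0.954), Ndn (0.948), Ces2g (0.934), Htr3a (0.93), Cmpk2 (0.929) and Dbh (0.929). Dbh makes noradrenaline in sympathetic neurons. In this search, 19 loci had a higher r than that of Erbb3, 41 than that of Cdh19, 1906 than that of Mbp and 5351 than that of S100b.

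Genes of the myelin sheath outside the 8 were lower by title as well. Of 20 further myelin genes, 20 were tested, 20 had a negative log2 fold change by title (51.1% of all tested loci did) and 10 also an unadjusted p under 0.05 (7.29% of all loci), with a median of -1.04. Cadm4, an adhesion molecule at the axon contact, was 1.11, 1.63, 1.31, 0.78 and 1.24 FPKM in the ApoE-/- libraries and 0.64, 0.43 and 0.46 FPKM in the NPRC-/-ApoE-/- libraries. The groups did not overlap, and its log2 fold change was -1.21 (SE 0.27, edgeR adjusted p = 0.237). Ugt8a, which makes the galactolipids of myelin, had a log2 fold change of -1.18, the gap junction gene Gjc3 of -1.83 and Drp2, the partner of periaxin, of -1.23. Their levels were low, with means of 0.18, 0.20 and 0.21 FPKM. The 3 with the highest levels, which many cell types express, were Ndrg1 (mean 15.5 FPKM, log2 fold change -0.10), Mtmr2 (6.76, -0.15) and Mpp6 (6.33, -0.37). None had an adjusted p under 0.05 in edgeR. Without NPRC-/-ApoE-/- 2 the count of 10 was 6, and without NPRC-/-ApoE-/- 3 it was 5. The median by title was -0.62 for the 7 genes tested when at least 1 FPKM in 3 libraries was required. With limma on log2(FPKM + 1) it was -0.17. By genotype entry, 6 of 20 were lower, 0 of them with an unadjusted p under 0.05, and the median was 0.09.

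Of 12 transcription factors around Sox10, 9 were tested and 5 were lower by title (51.1% of all tested loci were). Of these, 1, Egr2, had an unadjusted p under 0.05 (7.29% of all loci were lower at this threshold), and the median was -0.07. Egr2, the regulator of myelination, which macrophages also express, was 2.14, 2.59, 7.03, 3.75 and 1.62 FPKM in the ApoE-/- libraries and 1.61, 1.01 and 1.46 FPKM in the NPRC-/-ApoE-/- libraries. The lowest ApoE-/- library was just above the highest NPRC-/-ApoE-/- library, and the log2 fold change was -1.34 (SE 0.511, edgeR adjusted p = 0.338). Without NPRC-/-ApoE-/- 1, 2 or 3, Egr2 no longer had an unadjusted p under 0.05, and the count was 0. Its cofactors Nab1 (mean 12.2 FPKM) and Nab2 (5.91 FPKM) had log2 fold changes of -0.07 and -0.27, and the broadly expressed Yy1 (5.09 FPKM) of 0.32 (SE 0.335). Pou3f2, Sox2 and Pax3 were too low to test, at 0.07 FPKM or less in every library.

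Axon and neuregulin signalling genes were mixed. All 16 were tested, 12 were lower by title (51.1% of all loci), 6 of them with an unadjusted p under 0.05 (7.29% of all loci), and the median was -0.43. Among those 6 were Adam23 (-1.19, mean 0.36 FPKM), Lgi4 (-0.74), a secreted ligand of Schwann cell development, and the plexin Plxnb3 (-1.09, mean 0.25 FPKM). The rest were the axonal adhesion gene Cadm3 (-0.90, at a locus with 2 gene names), the laminin receptor subunit Itga6 (-0.90) and Nfasc (-1.14), which builds the node of Ranvier. The edgeR adjusted p of all 6 was at least 0.239. Dag1 (mean 37.8 FPKM), Lama2 (7.15) and Itgb4 (5.04), receptors and matrix of the basal lamina that muscle and epithelium share, had log2 fold changes of 0.23, 0.12 and -0.24. Without NPRC-/-ApoE-/- 2 the count of 6 was 3. By genotype entry 8 of 16 were lower, 0 of them with an unadjusted p under 0.05.

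Genes of non-myelinating and repair Schwann cells were lower as well, with 1 exception. Of 18, 17 were tested, 16 were lower by title (51.1% of all loci), 9 of them with an unadjusted p under 0.05 (7.29% of all loci), and the median was -0.76. Ngfr, the low-affinity neurotrophin receptor, which sympathetic neurons also carry, was 2.00, 0.99, 7.55, 0.69 and 1.09 FPKM in the ApoE-/- libraries and 0.26, 0.04 and 0.20 FPKM in the NPRC-/-ApoE-/- libraries. The groups stood apart, and ApoE-/- 3 was far above all others (log2 fold change -3.86, SE 1.03, edgeR adjusted p = 0.256). The growth cone gene Gap43 (-3.41), the collagen Col28a1 (-1.80), the potassium channel Kcna1 (-0.95) and the sodium channel Scn7a (-0.48) were also lower with an unadjusted p under 0.05. Col28a1 had the smallest p of the list. The levels of Gap43 and Col28a1 were low, with means of 0.29 and 0.32 FPKM. Ncam1 went the other way, at 10.70, 7.74, 8.47, 7.17 and 13.01 FPKM against 9.96, 17.07 and 15.92 FPKM, with overlap (0.65, SE 0.231, adjusted p = 0.322). It was the 1 gene of the list that was higher with an unadjusted p under 0.05 (5.77% of all loci were). That count was 0 without NPRC-/-ApoE-/- 2 or 3. Ncam1 is an adhesion molecule of non-myelinating Schwann cells that muscle also makes. Matn2 (mean 7.004 FPKM) had a log2 fold change of -0.64, and Shh was listed at 0 throughout. Without NPRC-/-ApoE-/- 2 the count of 9 was 4. By genotype entry 13 of 17 were lower, 0 of them with an unadjusted p under 0.05.

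**Figure D4:**
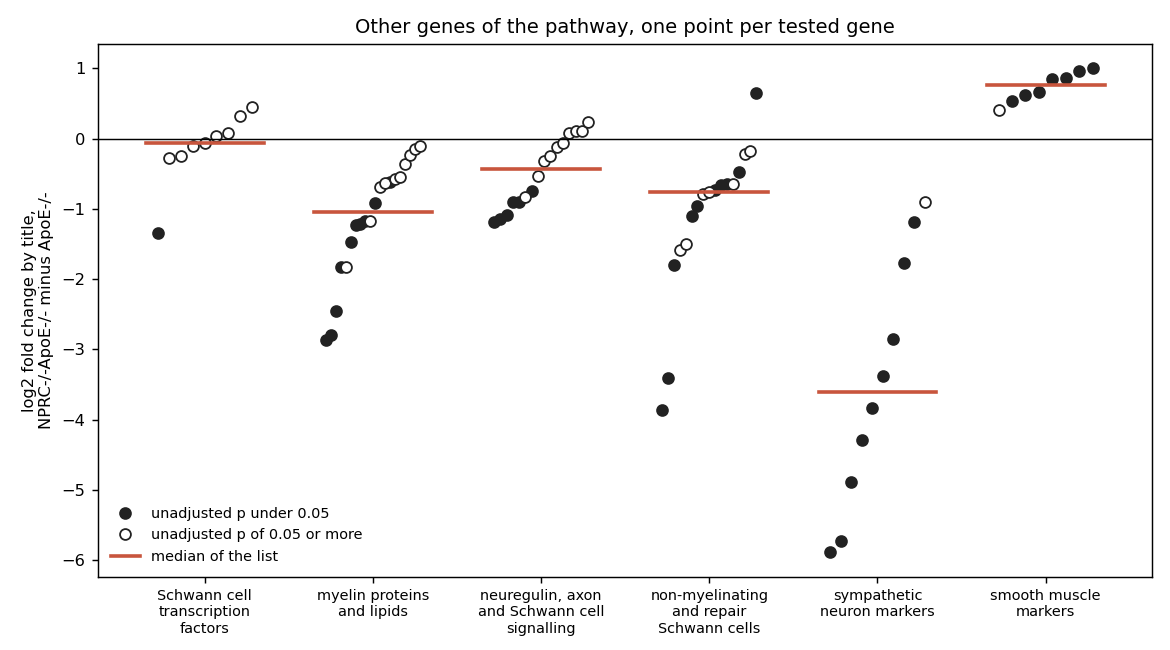
log2 fold change by title (y axis) of every tested gene of 4 lists around the Schwann cell genes and of 2 marker lists (x axis), with filled points for an unadjusted p under 0.05 and red bars at the medians. The medians run from -0.07 for the transcription factors to -1.04 for myelin proteins and lipids, beside -3.61 for sympathetic neuron markers and 0.76 for smooth muscle markers.

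Markers of other cells in the aorta moved with the same titles. All 10 sympathetic neuron markers were lower by title (51.1% of all tested loci were), with a median of -3.61. Of these, 9 had an unadjusted p under 0.05 (7.29% of all loci were lower at this threshold). By genotype entry 10 of 10 were lower (50.9% of all loci), 0 of them with an unadjusted p under 0.05 (0.807%), with a median of -1.33. Their summed level was 19.2, 13.1, 49.9, 12.8 and 9.02 FPKM in the ApoE-/- libraries and 3.46, 0.79 and 2.88 FPKM in the NPRC-/-ApoE-/- libraries, without overlap. The r of this sum with Sox10 over the 8 libraries was 0.892, with Cdh19 0.832 and with S100b 0.075. Because the sum did not overlap between titles, these r include the difference between groups. Without the 2 libraries farthest from the median of the sum, they were 0.705, 0.644 and 0.607 (n = 6). The part of these markers in the result was not tested.

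Smooth muscle markers went the other way. All 8 were higher by title, 7 of them with an unadjusted p under 0.05. Over all tested loci, 5.77% were higher and 7.29% lower at this threshold. The smooth muscle sum ran from 1339 to 1786 FPKM in the ApoE-/- libraries and from 1729 to 2964 FPKM in the NPRC-/-ApoE-/- libraries. The count of 7 was 3 without NPRC-/-ApoE-/- 3. By entry 0 had an unadjusted p under 0.05, and the median was 0.12 and not 0.76. The 8 macrophage markers were all lower (5 with an unadjusted p under 0.05, 706 to 2197 FPKM against 337 to 1111 FPKM), as were the 8 fibroblast markers (2 of them, 910 to 2050 FPKM against 572 to 1211 FPKM). The macrophage count of 5 was 1 without NPRC-/-ApoE-/- 3, 2 without NPRC-/-ApoE-/- 2, 3 without ApoE-/- 3 or 4 and 8 without ApoE-/- 5. The fibroblast count of 2 was 1 without NPRC-/-ApoE-/- 2 or 3, 5 without NPRC-/-ApoE-/- 1 and 6 without ApoE-/- 5. By entry both counts were 0, with medians of -0.14 and -0.10. Over all 8 libraries, Mbp ran closest with these sums, with r of -0.935 for smooth muscle and 0.904 for macrophages. Without the 2 libraries farthest from the median of each sum, these were -0.763 and 0.684 (n = 6), and Pmp22 ran closer with macrophages (0.938). Whether the mix of cells took part in the difference of Mbp was not tested. Of 4 tested perineurial markers 3 were lower, 2 of them with an unadjusted p under 0.05, at 11.03 to 19.24 FPKM against 11.73 to 14.14 FPKM, and 1 without NPRC-/-ApoE-/- 2 or 3. The 8 endothelial markers (0 with an unadjusted p under 0.05) summed to 108 to 120 FPKM against 96.5 to 111 FPKM, and the 8 adipocyte markers had 0 as well. Cartilage markers summed to 15.7 to 39.1 FPKM against 17.3 to 23.3 FPKM, and skeletal muscle markers to 0.79 to 9.43 FPKM against 5.24 to 7.78 FPKM. At an unadjusted p under 0.05, 1 of 6 cartilage markers was lower (7.29% of all loci) and 1 of 6 skeletal muscle markers higher (5.77%). The cartilage count was 0 without NPRC-/-ApoE-/- 2, and it was 3 without ApoE-/- 5. The skeletal muscle count was 0 without NPRC-/-ApoE-/- 1, and it was 2 without ApoE-/- 5. The 10 Schwann cell markers themselves, 5 of them among the 8 genes, summed to 25.4 to 38.0 FPKM against 25.9 to 30.7 FPKM, to which Ncam1, Scn7a and S100b contributed most. Of these 10 markers, 9 were lower by title (51.1% of all loci), 8 of them with an unadjusted p under 0.05 (7.29% of all loci). The other marker, Ncam1, was higher with an unadjusted p under 0.05 (5.77% of all loci). The count of 8 was 4 without NPRC-/-ApoE-/- 2, and it was 5 without NPRC-/-ApoE-/- 3. By genotype entry 5 of 10 were lower, 0 of them with an unadjusted p under 0.05, and the median was -0.03.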

How the data were processed

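RNA of whole mouse aortas was analysed in 8 libraries from 1 table of assembled loci. The authors trimmed the reads (cutadapt 1.9, per the submitters' processing notes, which also name FastQC and GRCm38), used HISAT2 for mapping and StringTie for assembly. They deposited the count of every locus as whole numbers without normalization. FPKM values, which the authors scaled to length and library, were also deposited. How the counts were made, and whether the counting used strand, is not given in the sources used here, although the kit marked strand with dUTP. Per-sample columns that matched no sample numbered 0. Columns holding the authors' functional terms were not used.

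Rows without a gene name (1686 of 48607, 0.486 to 0.743% of the counts of a library) were left out. The 30601 loci with a mean count of at least 10 over the 8 libraries were tested on counts with edgeR 4.0.16 in R 4.3.3 (TMM scaling, quasi-likelihood test, Benjamini-Hochberg adjustment over all of them), by title and by genotype entry. The biological coefficient of variation was 0.418 by title and 0.454 by entry, and the number of libraries limits the precision. In simulated counts of 5 against 3 libraries, edgeR gave an adjusted p under 0.05 to 17 of 100 loci changed 2-fold. It did so for 76 of 100 loci changed 4-fold and for 2 unchanged loci. The changed loci were drawn from those with higher counts. Every simulated locus had the spread typical of its count and no spread of its own, so these shares need not hold for the 8 genes. All 28 pairs of libraries differed by more than counting noise. The alternatives were DESeq2 1.42.0, limma 3.58.1 on log2(FPKM + 1) and log2(FPKM + 0.1), other scalings and filters, leaving out each library, the 4 libraries with matching labels, and a replicate block.

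The 8 genes were named in full, and of each pathway list up to 6 genes with the smallest unadjusted p under 0.05 and the 3 with the highest mean FPKM. Some genes that this rule picks are not reported here. Likeness to Sox10 was Pearson's r of log2 counts scaled to library size over loci with 1 gene name. The genes and lists were chosen with earlier results of these data known, so the p-values and counts describe them and are no independent support. Coordinates follow GRCm38 with GENCODE gene models. Promoters came from RefSeq (GRCm38.p6).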

Additional observations from a re-analysis of the deposited data

How the results depend on the processing

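All 8 genes kept a negative log2 fold change under each alternative by title that tested them (Prx was -0.001 in the 4 libraries with matching labels), and 6 were tested when at least 1 FPKM in 3 libraries was required, which left out Sox10 and Foxd3. By genotype entry in place of the title, 357 loci met the study's criterion in place of 1614, 4 of the 8 genes were lower, 0 had an unadjusted p under 0.05, the median was -0.07 and not -0.67, and Cdh19 (0.057), S100b (0.18), Pmp22 (0.073) and Prx (0.21) turned positive. The cause of these and the following shifts was not tested.

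By title, the number of loci with an adjusted p under 0.05 was 990 with DESeq2 (2 of the 8 genes: Sox10 at a log2 fold change of -1.21, Cdh19 at -0.88), 1 with limma on log2(FPKM + 1), 10 with limma on log2(FPKM + 0.1) and 1 with the FPKM filter, against 0 with edgeR. The edgeR and limma adjusted p of Sox10 and Cdh19 stayed above 0.05 throughout. The study's criterion was met by 177 loci with limma on log2(FPKM + 1), where the median of the 8 genes was -0.29, by 679 with the FPKM filter, which tests fewer loci, and by 2823 in the 4 libraries with matching labels. Of the loci that met it, 71.7% were lower by title and 64.8 to 76.8% over the alternatives by title. Leaving out each library in turn gave 0 to 3 loci with an adjusted p under 0.05, 992 to 2881 by the criterion, 2 to 4 of the 8 genes with an unadjusted p under 0.05 and medians of -0.77 to -0.54.

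By genotype entry, DESeq2 gave an adjusted p under 0.05 for 31 loci, none of them among the 8 genes. The criterion was met by 22 and 175 loci with limma at the larger and smaller pseudocount, by 87 with the FPKM filter and by 751 with no filter. Of the loci that met it, 38.4% were lower, 56.4% with DESeq2 and 33.4 to 58.6% over the alternatives by entry. Leaving out each library gave 0 to 2 loci with an adjusted p under 0.05, 315 to 646 by the criterion, and 0 to 1 of the 8 genes lower with an unadjusted p under 0.05.

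The replicate numbers of the titles did not pair the libraries: same-numbered libraries deviated with correlations of -0.234, -0.087 and 0.017. With a replicate block in the 6 libraries numbered 1 to 3, 0 loci had an adjusted p under 0.05 (1 without the replicate block), 1682 met the criterion (1908 without), 4 of the 8 genes had an unadjusted p under 0.05 in both, and the median was -0.77.

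Depth limits Foxd3 most, with 18 counts in its lowest library. For the lists around the 8 genes, alternatives applied after the data were seen gave 4 of the 7 myelin genes tested under the FPKM filter lower with an unadjusted p under 0.05, and 4 of 17 non-myelinating genes and 0 transcription factors in the libraries with matching labels. With no filter, 3 transcription factors were.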

Other observations

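The count of each other gene relative to Sox10 differed between libraries. Cdh19 had the narrowest range, with 2.03 to 3.73 counts per Sox10 count. Erbb3 had 2.23 to 5.22, and the highest ratio was that of NPRC-/-ApoE-/- 2, the library with the lowest Sox10. S100b had 1.88 counts per Sox10 count in ApoE-/- 3 and 10.1 in NPRC-/-ApoE-/- 2. Pmp22 had 12.9 in ApoE-/- 5 and 43.5 in NPRC-/-ApoE-/- 2. In ApoE-/- 4, whose genotype entry is Nprc-/-Apoe-/-, Mbp had 20.5 counts per Sox10 count, the highest of all libraries, against 6.01 in ApoE-/- 5, which has the same title and entry.

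The second loci named for these genes had values of their own. The locus named Pmp22 on the opposite strand (chr11:63151511-63157795) was 3.14, 2.67, 3.37, 3.03 and 2.33 FPKM in the ApoE-/- libraries and 2.71, 2.99 and 4.00 FPKM in the NPRC-/-ApoE-/- libraries. Its highest value was in NPRC-/-ApoE-/- 3, and the groups overlapped. The short locus named Cdh19 (chr1:110960945-110961338) was 0.41 to 0.88 FPKM in the ApoE-/- libraries and 0.25 to 0.88 FPKM in the NPRC-/-ApoE-/- libraries, and it held few of the counts under that symbol, of which the locus described above had 95.3%.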
